A study of Mus musculus with 12 samples.

Results

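The genes described are 9 reported targets of the microRNA miR-9: Rest, Nr2e1, Map1b, Hes1, Onecut2, Foxp1, Foxp4, Meis2 and Nfkb1. They are a fixed list of symbols not drawn from the values measured here. Earlier results of these data were known when the list was chosen. The members are 9 of the 24209 genes that the counted RefSeq entries were joined to. Together they had 18 of the 32850 RefSeq entries counted. Rest, Nr2e1, Map1b, Hes1, Onecut2 and Nfkb1 had 1 entry each, Foxp1 and Foxp4 had 3, and Meis2 had 6.

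RNA was sequenced from the whole hippocampi, both sides, of 12 adult male C57BL/6 mice, each a separate animal. In the miR-9 experiment, 3 mice received an AAV vector expressing GFP followed by a miR-9 sponge (GFP-miR-9sp, here miR-9sp; mice labelled 9sp-17, 9sp-23 and 9sp-9) and 3 received the vector with GFP alone (GFP Ctrl; GFP-16, GFP-2 and GFP-8). In the miR-34 experiment, 3 mice received GFP-miR-34sp (miR-34sp; miR34-13, miR34-18 and miR34-3) and 3 further mice received GFP Ctrl (GFP34-10, GFP34-4 and GFP34-8), and this second sponge served as the check of specificity. A sponge carries 8 imperfect binding sites for a miRNA in a row. All 12 mice were wild-type, carried a GFP vector under the synapsin promoter, were injected at 10 weeks of age and were dissected 10 weeks later. The promoter limits the sponge to neurons, and GFP was described as strongest in the dentate gyrus, whereas the RNA came from all cells of the tissue, so that fewer cells of a type and less RNA per cell cannot be told apart. The labels call the cell type hippocampal neurons, but markers of astrocytes, oligodendrocytes, microglia and blood vessels were all read in every mouse. Neither the mature miRNAs nor the sponge transcripts were measured in these counts, so the dose of sponge in each mouse is not known.

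miR-9 is among the most abundant miRNAs of the brain. It is made in neural progenitors and in neurons, and its best known targets are transcription factors that keep progenitors dividing or hold back neuronal genes. A miRNA loads onto an Argonaute protein and pairs through its seed, bases 2 to 8, with matching sites that lie mostly in the 3′ UTR of mRNAs, which lowers their translation and their stability. A sponge offers decoy sites to the miRNA, and a released target is then read as more mRNA only where the site acts on stability, since translation is not seen in RNA counts.

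The mature miRNAs are shown because their seeds define the sites searched for. The sequences are those of RefSeq on GRCm38.p6, 5′ to 3′, with the seed in capitals. miR-9-5p is encoded at 3 loci, and miR-34a-5p and miR-34b-5p share 1 seed, which differs from that of miR-9.
mmu-miR-9-5p: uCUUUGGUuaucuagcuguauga
mmu-miR-34a-5p: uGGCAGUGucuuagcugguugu
mmu-miR-34b-5p: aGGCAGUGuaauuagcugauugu

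Matches to the miR-9 seed were searched on the sense strand of 3′ UTRs in the GENCODE M1 annotation of mm9, taking the longest for a gene. A 7mer-m8 is ACCAAAG, an 8mer is the same letters followed by A (ACCAAAGA), and a 7mer-A1 is the last 7 letters of the 8mer; each site was counted once, as its longest form. Of 20007 genes with a 3′ UTR, 3.74% held an 8mer and 19.1% any of the 3 forms. Among the 9 reported targets, 3 held an 8mer (Onecut2, Foxp1 and Foxp4) and 8 held any form, Meis2 being the exception. These shares were not adjusted for the length of the 3′ UTR. At least 92.4% of all genes had a 3′ UTR no longer than that of Rest, Map1b, Foxp1 or Onecut2. For the other members this ranged from 27.4% (Hes1) to 77.1% (Meis2). The sites of 7 members are shown as 30 bases of the transcribed strand with the match in capitals, to let them be compared with the seed of miR-9; for Foxp1 and Foxp4 the 8mer is given and the additional 7mer-m8 of each is not.
Foxp1, 8mer, chr6:98878251-98878280, minus strand: tttctaaaattACCAAAGAtattacgcaaa
Foxp4, 8mer, chr17:48004732-48004761, minus strand: taaaacggatgACCAAAGAcctttcttatg
Rest, 7mer-A1, chr5:77713760-77713789, plus strand: tgactgggaggCCAAAGAtttaaaaagcag
Rest, 7mer-m8, chr5:77715190-77715219, plus strand: ttctgaggcaaACCAAAGgtatatttctca
Nr2e1, 7mer-m8, chr10:42282224-42282253, minus strand: aaagtgctgaaACCAAAGgccatagggtca
Map1b, 7mer-m8, chr13:100194835-100194864, minus strand: ctgaagcaaatACCAAAGcaggtgggagta
Hes1, 7mer-A1, chr16:30067787-30067816, plus strand: tttatgtgatgCCAAAGAtgtttgaaaatg
Nfkb1, 7mer-m8, chr3:135248271-135248300, minus strand: acactgtgtaaACCAAAGccctgacagtcc

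Onecut2 stood apart in its sites. Its 3′ UTR of 14356 bases held 18 matches to the miR-9 seed, 9 of them 8mers and 9 of them 7mers. No other of the 20007 genes had as many: the next, Pou2f1, had 9 matches, and the next highest number of 8mers was 5. This 3′ UTR was also among the longest, beside a median of 891 bases over all genes, and longer than the whole RefSeq entry that was counted (13391 bases), so that the sites need not all lie in that entry. Sites of miR-34, searched in the same way as CACTGCC and CACTGCCA, were present in 3 of the 9 members, with 3 in Foxp1, 1 in Onecut2 and 1 in Meis2, none of them an 8mer, against 19.2% of all genes with any form and 4.89% with an 8mer. A match is a run of letters and was not tested for binding.

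The counts of each mouse summed to between 17279620 and 24428477 reads in the miR-9 experiment and between 11029604 and 16934133 in the miR-34 experiment. Levels are given as CPM, counts scaled to the total of each mouse and between mice by TMM, with scaling factors between 0.976 and 1.01. Differences were tested with edgeR's quasi-likelihood test with Benjamini-Hochberg adjustment over all genes, on the sum of each gene's RefSeq entries. With 3 mice against 3, an exact permutation test of a single gene cannot give a p below 0.1.

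The counts reached only some of the members. Meis2, a homeobox transcription factor that works with Pbx proteins, had 0 reads on each of its 6 entries in all 12 mice. Foxp4, a forkhead repressor, had 5 reads in all, each on the entry NM_001110824, with 2 in GFP34-10 and 1 each in miR34-3, 9sp-17 and GFP-2. A count of 0 allows up to 3 reads, or 0.123 to 0.272 CPM without TMM depending on the mouse, which covers counting error only. Foxp1, another forkhead repressor, had 31 to 80 reads per mouse, and 515 of its 538 reads (95.7%) were on NM_053202, with 21 on NM_001197322 and 2 on NM_001197321. The 6 members with a single entry had at least 84 reads in every mouse.

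This split followed the number of entries per gene across the whole table. Of the 15883 coding genes with 1 entry, 65.6% had a mean above 10 scaled reads, against 39.2% of the 2507 with 2 entries, 32.3% of the 1810 with 3 to 5 and 26.4% of the 201 with 6 or more. The median of the mean scaled reads was 136 with 1 entry and 1.07 with 6 or more. Rbfox3, which encodes the neuronal marker NeuN, had 8 reads over its 6 entries, although other neuronal markers were read in every mouse. The values of Foxp1, Foxp4 and Meis2 were therefore not read as levels of their RNA in the tissue, and only Foxp1 passed the limit of a mean above 10 scaled reads and was tested. The rule for reads that match several entries of a gene is not given in the sources used here, and its part in these values was not tested.

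**Figure D1:**
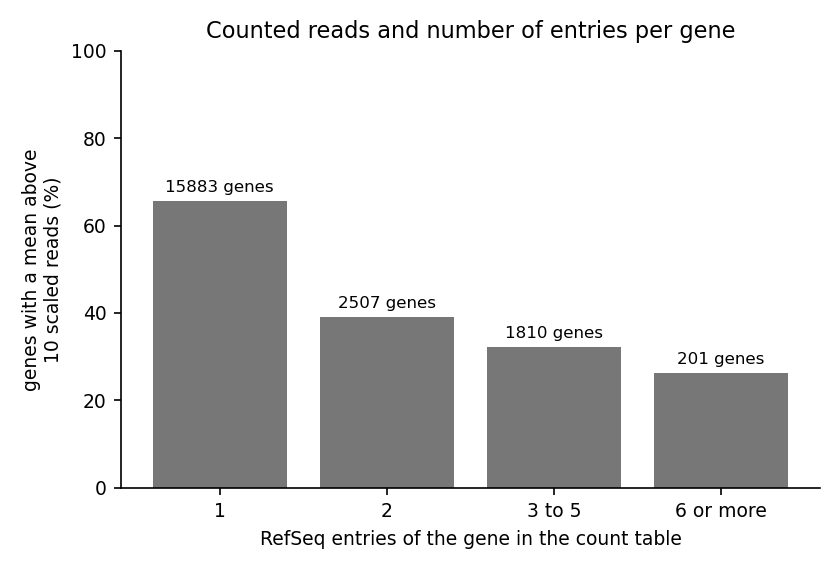
Share of coding genes with a mean above 10 scaled reads over 12 mice (y axis, percent) by the number of RefSeq entries of the gene in the count table (x axis). Each bar is 1 class with its number of genes above it; the share falls from 65.6% with 1 entry to 26.4% with 6 or more, the class of Meis2.

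Per length of transcript, the 6 members with 1 entry spanned a wide range. Map1b had a median of 205 RPKM (reads scaled by entry length in kilobases and by depth) over the 12 mice, Hes1 13.0, Nr2e1 9.21, Nfkb1 6.59, Rest 1.71 and Onecut2 1.30. Neighbours in this order did not overlap in range between mice, except Rest (1.48 to 2.71 RPKM) and Onecut2 (1.06 to 2.42 RPKM). The cytoskeletal Map1b was therefore read far more than the transcription factors, among which Hes1 and Nr2e1 were highest.

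After miR-9sp, none of the 7 members tested passed the adjusted threshold, which was also true of all 13045 genes tested (0.0%). Adjusted p-values of the members lay between 0.970 and 0.996 in edgeR's quasi-likelihood test. Without adjustment, 1 member, Onecut2, had a p under 0.05, where 4.73% of all genes did and 2.47% did so with a higher level after the sponge. Onecut2 was at an unadjusted p of 0.0759 in DESeq2, where Map1b (0.0373) was the 1 member under 0.05, and at 0.0536 in limma, where no member was. By the same unadjusted criterion 617 genes were found with edgeR, 290 with DESeq2 and 664 with limma, and after adjustment DESeq2 called 2 genes (Gfra2 and Hrk, named after their values were seen) and limma 0. The fitted log2 fold change was above 0 for 3 members and below 0 for 4 (49.7% of all genes were above 0), with a median of -0.01 beside -0.00 for all genes. In each member the miR-9sp and GFP Ctrl mice overlapped, whereas in 10.2% of all genes they did not.

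**Figure D2:**
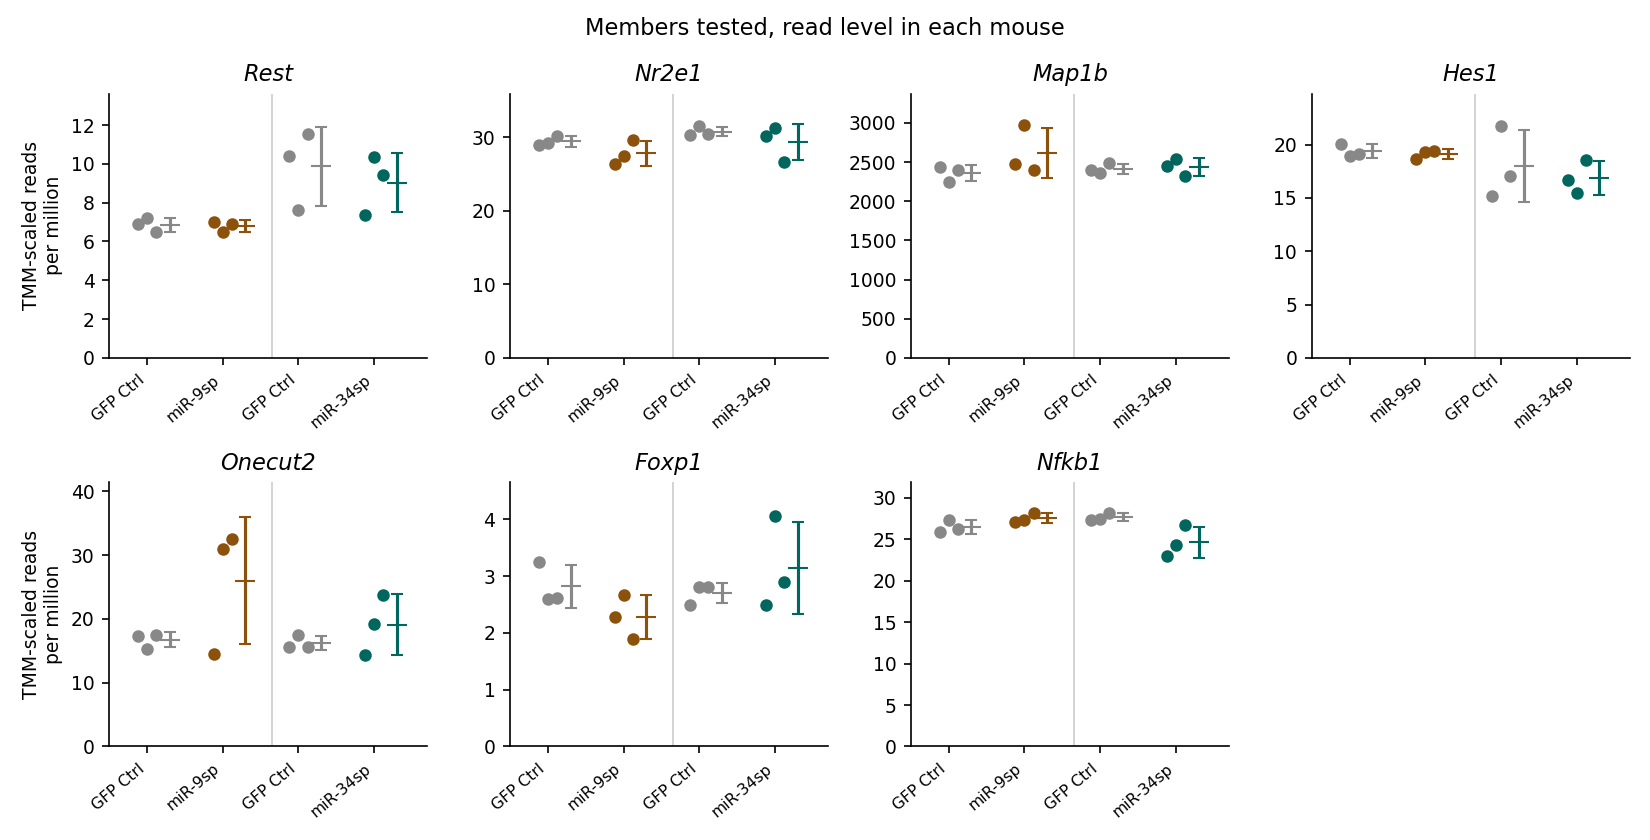
TMM-scaled CPM (y axis, from 0) of the 7 members tested, in each mouse (points) of the 4 groups (x axis), with the mean and SD of 3 mice beside the points. Onecut2 is at 30.9 and 32.5 in a pair of miR-9sp mice and at 14.6 in the third, below its GFP Ctrl mice.

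Among the transcription factors, Onecut2 had the largest fold change. Onecut2 (NM_194268, chr18:64500002-64560641 on mm9, plus strand) encodes a cut-homeodomain transcription factor. It was read at 14.6 CPM in 9sp-17, 30.9 CPM in 9sp-23 and 32.5 CPM in 9sp-9, against 17.3, 15.3 and 17.5 CPM in GFP-16, GFP-2 and GFP-8. A pair of sponge mice thus stood well above every GFP Ctrl mouse, while the remaining one was the lowest of the 6. The mean was 26.0 ± 9.94 CPM after miR-9sp and 16.7 ± 1.22 CPM after GFP Ctrl (SD, n = 3 each). The fitted fold was 1.55 (log2 fold change 0.63, SE 0.24, 95% interval 0.10 to 1.16), with an unadjusted p of 0.0244 and an adjusted p of 0.970 in edgeR. An exact permutation test, two-sided, gave p = 0.4. Of all 13045 genes, 47 had a fold at least as high, Onecut2 included, and by p-value it had rank 287.

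The call for Onecut2 turned on 1 mouse. Without 9sp-17 the log2 fold change was 0.93 (95% interval 0.75 to 1.11, a fold of 1.90) and the adjusted p 0.0159 in edgeR, and Onecut2 was then the only gene tested that passed. Without 9sp-23 the log2 fold change was 0.49 and without 9sp-9 it was 0.43, and neither passed. Other tools, size factors and filters, 1 model of 12 mice and leaving out a GFP Ctrl mouse gave 0.53 to 0.66, none of which passed. In 9sp-17 the summed level of 8 choroid plexus markers, such as the transthyretin gene Ttr, was 900 CPM, against 76.1 and 58.7 CPM in 9sp-23 and 9sp-9. GFP-2, with 753 CPM, and GFP-16 and GFP-8, with 298 and 130 CPM, were not as low as these. When 9sp-17 and GFP-2, both above 500 CPM, were left out together, a choice made after seeing the values, the log2 fold change was 0.87 and the adjusted p 0.0374 in edgeR. Of the 12 lists of cell type and regional markers in the miR-9 experiment, none had a gene past the adjusted threshold in edgeR. Summed levels did not overlap between groups for microglia (702 to 731 CPM after miR-9sp, 740 to 763 CPM after GFP Ctrl) and for pan-neuronal markers (1117 to 1198 CPM and 1055 to 1102 CPM), and they overlapped for the other 10 lists. Taken singly, 10.2% of all genes tested had groups that did not overlap. Whether choroid plexus in the dissected tissue had a part in the low Onecut2 level of 9sp-17 was not tested.

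**Figure D3:**
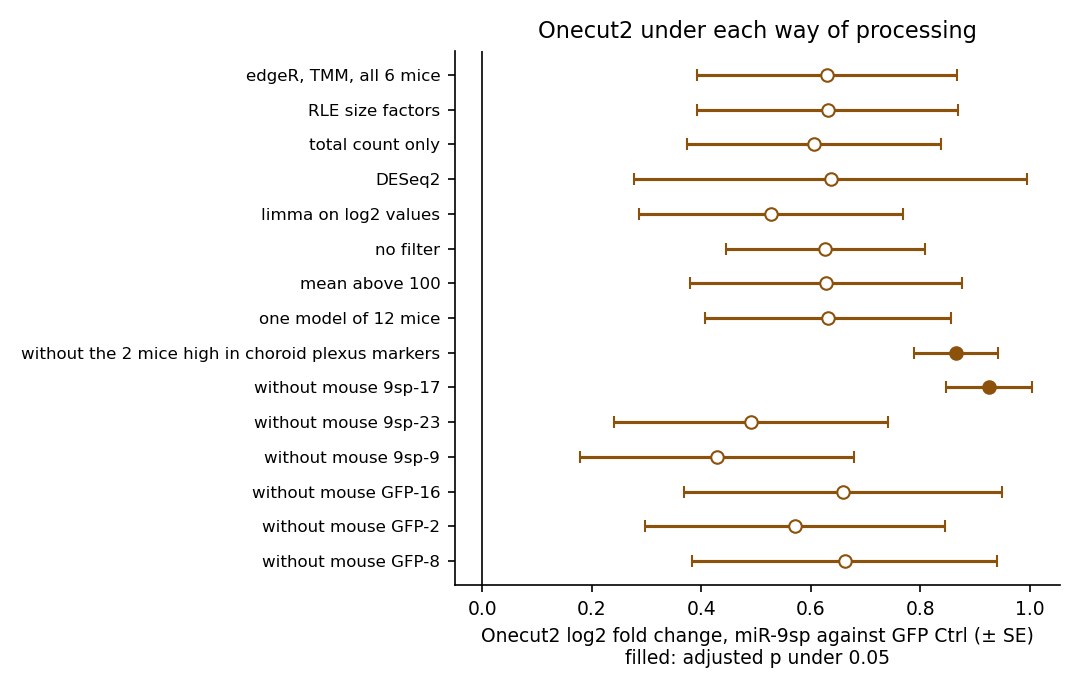
Log2 fold change of Onecut2 after miR-9sp against GFP Ctrl (x axis, points with SE bars) for each way of processing or each mouse left out (y axis). Filled points passed an adjusted p of 0.05: without 9sp-17 (0.93) and without the pair of mice high in choroid plexus markers (0.87).

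Rest (NM_011263, chr5:77694516-77715457) encodes the repressor that keeps neuronal genes silent outside neurons. Its level was 7.002, 6.46 and 6.91 CPM in 9sp-17, 9sp-23 and 9sp-9 and 6.88, 7.21 and 6.47 CPM in GFP-16, GFP-2 and GFP-8. The groups lay over each other. The log2 fold change was -0.01 (SE 0.10, 95% interval -0.24 to 0.21, or folds of 0.847 to 1.16). The annotation places the gene Mir5098 within Rest, and whether reads were counted by strand is not given in the sources used here.

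Nr2e1 (NM_152229, chr10:42281769-42303438) encodes the orphan nuclear receptor TLX of neural stem cells. It was read at 26.3, 27.4 and 29.7 CPM after miR-9sp and at 28.9, 29.1 and 30.2 CPM after GFP Ctrl, in the same order of mice. The lowest pair were sponge mice, and the remaining sponge mouse lay among the controls. Its log2 fold change was -0.08 (SE 0.06, 95% interval -0.22 to 0.06).

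Hes1 (NM_008235, chr16:30064470-30067882), a repressor switched on by Notch, stood at 18.6, 19.3 and 19.4 CPM after miR-9sp. In GFP Ctrl mice it stood at 20.1, 18.9 and 19.2 CPM, again overlapping. This gave a log2 fold change of -0.02 (SE 0.06, 95% interval -0.16 to 0.12). The log2 fold changes of Rest, Nr2e1 and Hes1 were thus all between -0.08 and -0.01.

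Foxp1 (chr6:98875332-99216526) stood at 2.28, 2.67 and 1.89 CPM in the miR-9sp mice and at 3.26, 2.59 and 2.61 CPM in the GFP Ctrl mice. The sponge mouse 9sp-23 lay above GFP-2 and GFP-8, and the other sponge mice lay below every control. The log2 fold change of the sum was -0.32 (SE 0.18, 95% interval -0.73 to 0.09), and that of NM_053202 alone was -0.28 (SE 0.18); no other entry of Foxp1 was read enough to be tested. With 1 mouse left out the log2 fold change of the sum ranged from -0.44 to -0.19. The groups overlapped and the gene did not pass the test. Here and in what follows, the values of Foxp1 are those of its counted reads and were not read as levels of its RNA in the tissue.

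Map1b and Nfkb1 are not transcriptional repressors of neuronal fate. Map1b (NM_008634, chr13:100191419-100286557), a microtubule-associated protein of growing axons, was read at 2479, 2978 and 2397 CPM after miR-9sp and at 2443, 2252 and 2404 CPM after GFP Ctrl. The sponge mice 9sp-23 and 9sp-17 lay above all controls and 9sp-9 was within them. Its fitted log2 fold change was 0.15 (SE 0.07, 95% interval -0.02 to 0.31), with an unadjusted p of 0.0752 in edgeR. Without 9sp-23 it was 0.04, and without 9sp-9 it was 0.21 with an unadjusted p of 0.0259 and an adjusted p of 0.843 in edgeR. Nfkb1 (NM_008689, chr3:135247619-135354511), the p105 and p50 subunit of NF-kB, was read at 27.1, 27.4 and 28.2 CPM after miR-9sp and at 25.9, 27.4 and 26.2 CPM after GFP Ctrl. GFP-2 lay between 9sp-17 and 9sp-23 and the other controls below all sponge mice, and the log2 fold change was 0.06 (SE 0.06, 95% interval -0.07 to 0.18).

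The miR-34 sponge gave the comparison for specificity. Among the members tested, Onecut2 held 1 miR-34 seed match and Foxp1 held 3. The part of these matches in the comparison was not tested. After miR-34sp, 0 of the 7 members passed the adjusted threshold in edgeR, beside 8 of 12492 genes (0.064%), and 1 member, Nfkb1, had an unadjusted p under 0.05, beside 6.43% of all genes, or 3.72% with a lower level after the sponge. Its level was 22.95, 24.4 and 26.7 CPM in miR34-13, miR34-18 and miR34-3 and 27.4, 27.4 and 28.2 CPM in GFP34-10, GFP34-4 and GFP34-8, so that every sponge mouse lay below every control, as in 5.76% of all genes. The log2 fold change was -0.17 (95% interval -0.33 to -0.0037), with an adjusted p of 0.769 in edgeR, and the exact permutation test gave 0.1, the smallest value possible. DESeq2 and limma gave no member an unadjusted p under 0.05 in this comparison. With 1 mouse left out in edgeR, Nfkb1 was under 0.05 without miR34-3 (log2 fold change -0.23) and in none of the other 5 fits, which gave -0.18 to -0.11.

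Onecut2 after miR-34sp was read at 14.3, 19.2 and 23.8 CPM in miR34-13, miR34-18 and miR34-3 and at 15.6, 17.5 and 15.6 CPM in GFP34-10, GFP34-4 and GFP34-8. Here too the sponge group held both the lowest mouse and the pair of highest mice. The log2 fold change was 0.23 (SE 0.16, 95% interval -0.12 to 0.57), and without miR34-3 it was 0.03. Without miR34-13, the lowest sponge mouse, it was 0.41 with an unadjusted p of 0.00565 and an adjusted p of 0.848 in edgeR. The other members lay between -0.15 for Rest and 0.19 for Foxp1, with Hes1 at -0.08, Nr2e1 at -0.07 and Map1b at 0.01, and the median over the 7 was -0.07 beside -0.00 for all genes. Summed choroid plexus markers in this experiment were lower in every sponge mouse (76.8 to 160 CPM) than in every GFP Ctrl mouse (661 to 2417 CPM). The same held for striatal markers (119 to 135 CPM against 136 to 213 CPM). At an unadjusted p under 0.05 in edgeR, 8 of 8 choroid plexus genes and 5 of 10 striatal genes were lower, beside 3.72% of all genes. Of the 8 genes past the adjusted threshold in this comparison, 4 were choroid plexus markers. The other 10 lists overlapped, and these differences and the sponge cannot be told apart for any member.

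**Figure D4:**
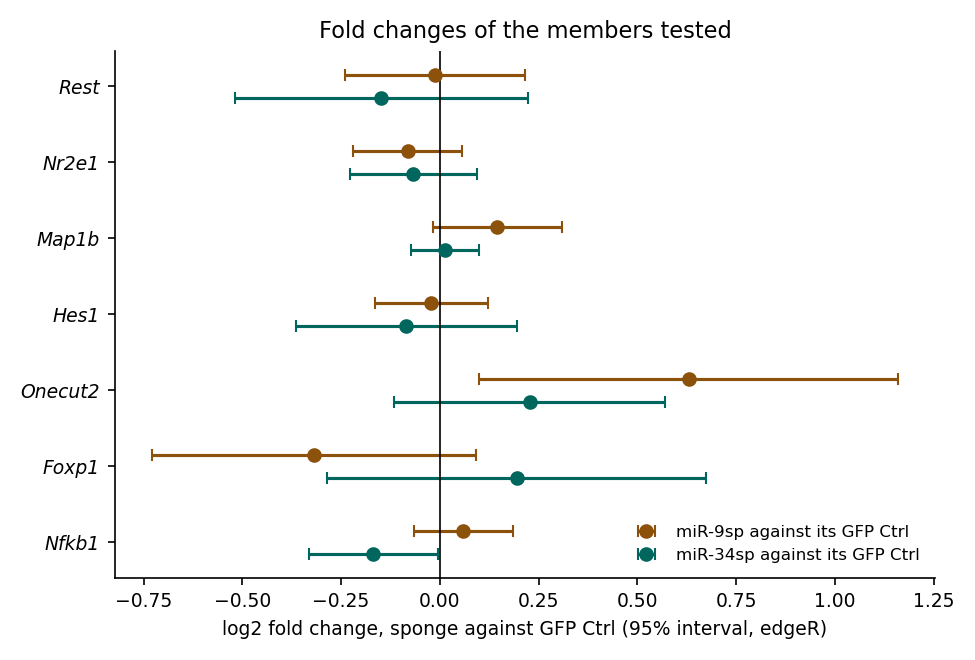
Log2 fold change with its 95% interval (x axis) of the 7 members tested (y axis) for miR-9sp and miR-34sp, each against its own 3 GFP Ctrl mice. Intervals exclude 0 for Onecut2 after miR-9sp (0.63) and Nfkb1 after miR-34sp (-0.17) only, and neither passed after adjustment.

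A single model of both experiments (12 mice) tested whether the sponges differed in effect. No member passed the adjusted threshold, and nor did any of the 12835 genes tested (0.0% in edgeR, with 783 genes or 6.1% at an unadjusted p under 0.05; DESeq2 called 5 genes, none of them a member). For Onecut2 the effect of miR-9sp was higher by 0.40 on the log2 scale (95% interval -0.32 to 1.13), so that its change was not shown to be particular to the miR-9 sponge. Without 9sp-17 the difference was 0.70 (95% interval 0.27 to 1.13), with an adjusted p of 0.909 in edgeR. It was 0.20 without 9sp-9, 0.26 without 9sp-23, 0.22 without miR34-13 and 0.60 without miR34-3, and 0.34 to 0.44 without any other mouse. Nfkb1 differed by 0.23 (95% interval 0.04 to 0.42), with an unadjusted p of 0.0198 and an adjusted p of 0.767, and Foxp1 by -0.51 (95% interval -1.12 to 0.10). For the 4 other members the differences lay between -0.01 and 0.14.

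The number of seed matches was set beside the change of each member. Hes1, Map1b, Nfkb1 and Nr2e1, with 1 match each, had log2 fold changes of -0.02, 0.15, 0.06 and -0.08 after miR-9sp. Rest and Foxp1, with 2 matches each, had -0.01 and -0.32, and Onecut2, with 18, had 0.63. Outside the members, 27 tested genes had at least 2 miR-9 8mers, and their median log2 fold change was 0.05 after miR-9sp, with 66.7% above 0, and 0.04 after miR-34sp, with 59.3% above 0. Genes with 1 8mer had 56.0% above 0 after miR-9sp, and genes with none had 49.4%. After miR-34sp these shares were 47.1% and 49.0%. The median log2 fold change after miR-9sp was 0.01 for the 448 genes with 1 8mer and -0.00 for the 10255 with none. At an unadjusted p under 0.05 in edgeR after miR-9sp, 0 of the 27 genes were higher and 0 lower. By that criterion, 20 of the 448 genes were higher and 5 lower, and 245 of the 10255 were higher and 228 lower. None of these genes outside the members passed the adjusted threshold after miR-9sp, so that the shares are given as a description.

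**Figure D5:**
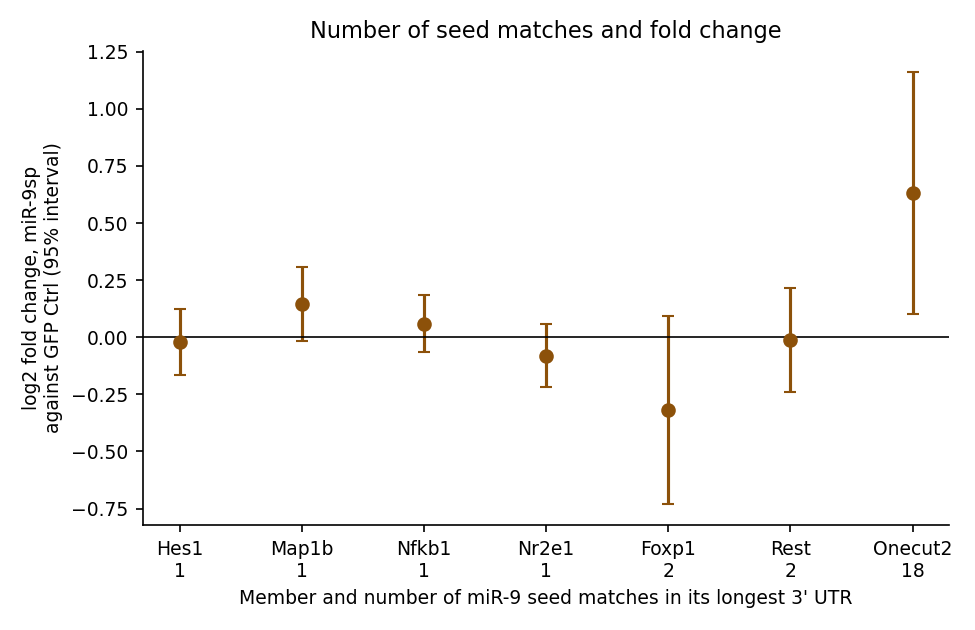
Log2 fold change after miR-9sp against GFP Ctrl with its 95% interval (y axis) of the 7 members tested, ordered by the number of miR-9 seed matches in their longest 3′ UTR (x axis, number under each name). Members with 1 or 2 matches lie on both sides of 0, and Onecut2, with 18, is at 0.63.

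Genes around the members were taken from lists of their pathways, chosen with earlier results of these data known. Of 13 other reported miR-9 targets tested after miR-9sp, 0 passed edgeR's adjusted threshold and 0 had an unadjusted p under 0.05, with 7 above 0; the smallest p-values were those of Lifr (log2 fold change 0.10) and Foxo1 (0.13). Of 9 corepressors and cofactors of REST, 0 passed after adjustment. Beside 4.73% of all genes, 1 of them had an unadjusted p under 0.05 in edgeR. This was Rcor1, which encodes CoREST, with 26.8, 30.2 and 30.02 CPM after miR-9sp and 23.8, 25.8 and 24.4 CPM after GFP Ctrl, every sponge mouse above every control (log2 fold change 0.23, SE 0.07; adjusted p = 0.970). Ctdsp1, a small phosphatase that acts with REST, was at -0.11, with every sponge mouse below every control. Over all genes tested after miR-9sp, the groups did not overlap, in either direction, in 10.2%.

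Of 18 neuronal genes that REST represses, 0 passed after adjustment and 3 had an unadjusted p under 0.05, beside 4.73% of all 13045 genes. Grin1, the obligate NMDA receptor subunit, was read at 60.4, 57.7 and 58.7 CPM after miR-9sp and 50.9, 54.1 and 49.9 CPM after GFP Ctrl (log2 fold change 0.19, SE 0.05). Unc13a, a synaptic vesicle priming factor, was at 0.15 (SE 0.05), and Scg2, which encodes a secretory granule protein, at -0.13 (SE 0.05). In the miR-34 experiment Grin1 was read at 46.7, 48.8 and 49.7 CPM after miR-34sp and 43.7, 46.6 and 44.2 CPM after GFP Ctrl. Its log2 fold change there was 0.11 (SE 0.06), and that of Unc13a was 0.01 (SE 0.04). Of the 18 genes, 12 were above 0 after miR-9sp and 13 after miR-34sp. The summed pan-neuronal markers given above also lay higher after miR-9sp, and their part in the values of Grin1 and Unc13a was not tested.

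Among 21 genes of the Notch pathway, 0 passed after adjustment and 13 were above 0. Only 1 had an unadjusted p under 0.05 in edgeR, beside 4.73% of all genes. This was Hey1, a Notch target of the same family as Hes1 (log2 fold change 0.12, SE 0.04). Id3, an inhibitor of basic helix-loop-helix factors, was at 0.16 (SE 0.08). Hey1 was at 0.00 (SE 0.05) and Id3 at -0.09 (SE 0.09) after miR-34sp. In the NF-kB pathway, 9 genes were tested, 0 passed after adjustment and 3 were above 0. Traf6, a ubiquitin ligase upstream of NF-kB, was the 1 gene with an unadjusted p under 0.05 (log2 fold change -0.11, SE 0.05), beside 4.73% of all genes. Ikbkb, a kinase of the same path, was at 0.22 (SE 0.11). Traf6 was at -0.04 (SE 0.06) and Ikbkb at 0.24 (SE 0.16) after miR-34sp, where 2 of the 9 genes were above 0. The paralogues and partners of Nr2e1, Map1b, Onecut2, the Foxp factors and Meis2 had 14 genes tested, of which 0 passed at either threshold, with Map1s at a log2 fold change of 0.07. C130071C03Rik, the transcript over the Mir9-2 locus, was read at 4.47 to 5.40 CPM after miR-9sp and at 3.55 to 5.04 CPM after GFP Ctrl. The list of miR-9 loci, with 3 genes tested and 0 passing at either threshold, also held A330023F24Rik (55.2 to 83.7 CPM and 57.5 to 68.9 CPM), which RefSeq places at Mir29b-2 and not at a miR-9 locus. After miR-34sp, edgeR called 0 genes of these lists after adjustment, and 4 had an unadjusted p under 0.05, beside 6.43% of all genes. Of the 18 genes repressed by REST these were Gria2 and Celsr3, both above 0, and of the 21 Notch genes they were Dll4 and Hey2, both below 0, while the other 5 lists had none.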

How the data were processed

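RNA of 12 hippocampal samples was sequenced as 50 base single end reads. What the authors deposited are unscaled counts of reads on each RefSeq entry, and beside them another value, the length of each entry in bases. The study's methods give mm9 as the genome, while the submitters' processing notes name STAR and mm10; the counting tool and the rule for shared reads are not given in the sources used here. Groups came from the sample labels. The GFP Ctrl mice labelled without 34 were taken as those of the miR-9 experiment.

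Entries were joined to symbols by RefSeq accession (98.7% of 32850) and summed per gene. Features with a mean above 10 scaled counts over the mice of a fit were tested with edgeR 4.0.16 in R 4.3.3 (quasi-likelihood test, TMM, Benjamini-Hochberg over all features, threshold 0.05), for gene sums and for single entries. Exact permutation tests were two-sided. Seed matches were searched in GENCODE M1 3′ UTRs on mm9. The code was tested on simulated data. The alternatives were DESeq2 1.42.0, limma 3.58.1 on log2 values with a pseudocount of 1, other size factors, no filter or a mean above 100, 1 model of 12 mice, and leaving out each mouse; leaving out the mice high in choroid plexus markers was a choice made with the values known. The members and lists were chosen with earlier results of these data known. All members were named, and from each pathway list the genes with an adjusted p under 0.05 and the 2 with the smallest p after miR-9sp; others named with an unadjusted p under 0.05 (Scg2, Gria2, Celsr3, Dll4 and Hey2) were chosen after their values were seen. Total counts ranged from 11029604 to 24428477 per mouse, and figures were made with Python 3.11.15 and matplotlib 3.10.9.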

Additional observations from a re-analysis of the deposited data

How the results depend on the processing

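No paired analysis was possible because within an experiment no replicate number occurs in both groups. Of the members' fold changes under all alternatives, 295 kept direction and side of the threshold, 15 changed sign and 2 (Onecut2 after miR-9sp, without 9sp-17 or without both mice high in choroid plexus markers) newly passed. With both of those mice left out, Rest after miR-9sp was at 0.00369, and 1 gene and 1 RefSeq entry were called. Sign changes were otherwise seen with 1 mouse left out. The log2 fold changes then ranged from -0.0492 to 0.0248 for Rest and from -0.0389 to 0.00596 for Hes1 after miR-9sp. After miR-34sp they ranged from -0.0189 to 0.0470 for Map1b, -0.198 to 0.0707 for Hes1 and -0.0102 to 0.352 for Foxp1. For the difference between sponges they ranged from -0.00252 to 0.285 for Rest, -0.0779 to 0.0306 for Nr2e1 and -0.0892 to 0.180 for Hes1. After miR-9sp, where 0 genes were called, DESeq2 and the fit without a filter called 2 genes and 2 entries each, and leaving out a mouse gave 0 to 1 of either. After miR-34sp, where 8 genes and 4 entries were called, other size factors gave 4 genes (RLE and total counts) and 8 entries (RLE), DESeq2 36 genes and 37 entries, limma 9 entries, no filter 81 genes and 140 entries, a mean above 100 and 1 model of 12 mice 0 of both, and leaving out a mouse 0 to 57 genes and 0 to 60 entries. For the difference between sponges, where 0 genes were called, DESeq2 called 5, no filter 4, and leaving out a mouse 0 to 1. Members with an unadjusted p under 0.05 after miR-9sp (1 in edgeR) were 0 with limma, 2 without a filter and in 1 model of 12 mice, and 0 to 1 with a mouse left out; after miR-34sp (1 in edgeR) they were 0 with total counts, DESeq2 and limma, and 0 to 1 with a mouse left out. The cause of these changes was not tested. Few or no reads were counted for Foxp1, Foxp4 and Meis2, which limits what their values can show. With 3 mice per group, single mice move the values of Onecut2 and Map1b.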
